A study of Mus musculus with 12 samples.

Results

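The genes described here are Mt1 and Mt2, the metallothioneins expressed in most mouse tissues, and Mtf1, which encodes the metal-responsive transcription factor MTF1. These 3 genes were picked by name, with their levels in these libraries already known, out of 54232 genes in a deposited count table of intestinal stem cells (ISCs) from young and old mice. All 3 were among the 13368 genes with enough reads to be tested. Because the choice was made with their levels in view, the values of Mt1, Mt2 and Mtf1 are given as a description, with standard errors but no p-values.

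The table holds 12 libraries of RNA sequenced from the 3′ end, each from 1 mouse, in 4 groups of 3. SM6 mice were wild-type C57/Bl6 females, and their ISCs were isolated by 6 surface markers. Lgr5-GFP mice were of the reporter strain Lgr5-EGFP-IRES-CreERT as the labels spell it (Lgr5-EGFP-IRES-CreERT2 in the methods), in which GFP and an inducible Cre are expressed from the Lgr5 locus. Young mice were 2 months old and old mice 22 months old, with no treatment named in the labels. The labels give the surface-marker sort for every library, whereas a supplementary figure legend has the Lgr5-GFP cells isolated by their reporter, so a difference between SM6 and Lgr5-GFP can come from strain or isolation and these cannot be told apart. Total counts ran from 970472 to 3815425 per library (median 1424340). All 10 ISC markers examined, Lgr5, Ascl2 and Olfm4 among them, had counts in every library. Of 8 stromal and endothelial markers 0 to 3 had counts in a library, with a summed level of at most 5.79 counts per 1000000 counts of the library (CPM). Of 8 immune markers 2 to 6 had counts, with at most 31.8 CPM in all.

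Metallothioneins are small cysteine-rich proteins that bind zinc, copper and cadmium ions and buffer them in the cell. When free zinc rises, MTF1 binds zinc through its zinc fingers, enters the nucleus and activates genes whose promoters carry metal response elements (MREs), short sequences with the core TGCACNC or TGCGCNC. Mt1 and Mt2 are the best known of these genes, Slc30a1, a zinc exporter of the plasma membrane, is another, and glucocorticoids and oxidative stress also raise metallothionein transcription. In the intestine metallothionein is most abundant in crypt cells, Paneth cells in particular, and follows dietary zinc.

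Mt1 and Mt2 lie next to each other on chromosome 8. In GENCODE vM21 on GRCm38, Mt2 (ENSMUSG00000031762) spans chr8:94172664-94173568 and Mt1 (ENSMUSG00000031765) spans chr8:94179082-94180327, both on the plus strand, with 5513 bases between them. Mtf1 (ENSMUSG00000028890) spans chr4:124802104-124849800 on the plus strand. The main transcripts of Mt1 and Mt2, Mt1-201 and Mt2-201, have 3 exons each and are 549 and 511 bases long. The region before each start is shown because both genes are textbook MTF1 targets and moved together in these libraries. The sequences are from RefSeq (GRCm38.p6), run from 250 bases before to 30 bases after RefSeq's start of the gene, and are written 5′ to 3′ on the plus strand, with capitals marking matches of the MRE core on either strand (the core as given, or its reverse complement). RefSeq's start lies 7 bases after the GENCODE start for Mt1, 46 bases before it for Mt2 and 445 bases after it for Mtf1, and positions below count from RefSeq's.

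Mt1 chr8:94178839-94179118: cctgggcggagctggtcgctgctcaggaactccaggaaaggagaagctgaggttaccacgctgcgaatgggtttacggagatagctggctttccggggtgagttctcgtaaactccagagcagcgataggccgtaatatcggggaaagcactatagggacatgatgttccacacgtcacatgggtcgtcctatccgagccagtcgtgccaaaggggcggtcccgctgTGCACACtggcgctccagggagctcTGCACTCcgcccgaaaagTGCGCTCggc

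Mt2 chr8:94172368-94172647: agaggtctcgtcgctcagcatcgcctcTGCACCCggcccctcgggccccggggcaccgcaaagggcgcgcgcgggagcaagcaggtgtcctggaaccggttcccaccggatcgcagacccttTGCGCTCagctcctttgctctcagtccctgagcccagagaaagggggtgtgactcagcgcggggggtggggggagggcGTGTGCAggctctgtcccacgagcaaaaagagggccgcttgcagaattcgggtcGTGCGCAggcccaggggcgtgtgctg

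The Mt1 window held 3 matches, all on the plus strand, starting at −23, 3 and 21 relative to RefSeq's start. The Mt2 window held 4, on the plus strand at −223 and −128 and on the minus strand at −50 and 5. None of these matches overlapped another. Of 32851 mouse promoter windows of the same length, 24.1% held at least 1 match, 1.73% at least 3 and 0.405% at least 4. With a longer form, the core followed by G, the Mt1 window held 1 match and the Mt2 window 3, and of all windows 7.01% held at least 1 and 0.152% at least 3. The Mtf1 window (chr4:124802299-124802578) held 0 matches. In the Mt2 window the letters TGACNNNGC, the core of the antioxidant response element, occurred once, at −79, and in 11.5% of all windows they occurred at least once. RefSeq gives Slc30a1 1 MRE match, Selenow 2 that overlap each other on opposite strands, Mt4 1, Mt3 0 and Slc39a10 0 in both of its windows. These matches describe the letters in a window and are not measured binding sites, and the window depends on which annotated start is used. The letters TATAAA of a TATA box occurred in neither the Mt1 nor the Mt2 window. Whether RefSeq's starts are those used in these cells was not tested, so matches nearer the start in use may be missed.

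Mt1 was well covered in every library, with 537 to 4899 counts. Scaled to library size (CPM after TMM scaling, which corrects for differences in composition), its level in the SM6 young libraries was 870, 837 and 757 CPM in replicates 1, 2 and 3, and in the Lgr5-GFP young libraries it was 635, 725 and 630 CPM. In the SM6 old libraries it was 1923, 932 and 503 CPM, and in the Lgr5-GFP old libraries 718, 3984 and 518 CPM. The young mice of a group thus sat close together, whereas the old ones lay on both sides of them. In old SM6, 2 libraries were above and 1 below every young SM6 library, and in old Lgr5-GFP 1 was above, 1 below and 1 among the young.

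Mt2 ordered the libraries much as Mt1 did, with wider steps. Its level was 106, 92.0 and 62.1 CPM in young SM6, 376, 100.4 and 14.4 CPM in old SM6, 66.2, 69.0 and 60.0 CPM in young Lgr5-GFP, and 64.0, 1286 and 23.1 CPM in old Lgr5-GFP. Lgr5-GFP old replicate 2 and SM6 old replicate 1 were the highest of the 12 libraries for both genes. SM6 old replicate 3 and Lgr5-GFP old replicate 3 were the lowest for both, with only 18 and 24 Mt2 counts. The remaining old library of each isolation, SM6 old replicate 2 and Lgr5-GFP old replicate 1, lay near the young ones.

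Mtf1 had few counts and a narrower range. It had 15 to 52 counts per library, and its level was 17.6, 20.5 and 27.5 CPM in young SM6, 29.6, 14.9 and 16.8 CPM in old SM6, 16.4, 14.2 and 13.7 CPM in young Lgr5-GFP, and 16.0, 17.1 and 14.5 CPM in old Lgr5-GFP. The library with the most Mt1 and Mt2, Lgr5-GFP old replicate 2, was thus within the range of the other libraries for the transcript of their activator. SM6 old replicate 1, second for Mt1 and Mt2, was the highest for Mtf1, just above SM6 young replicate 3.

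**Figure D1:**
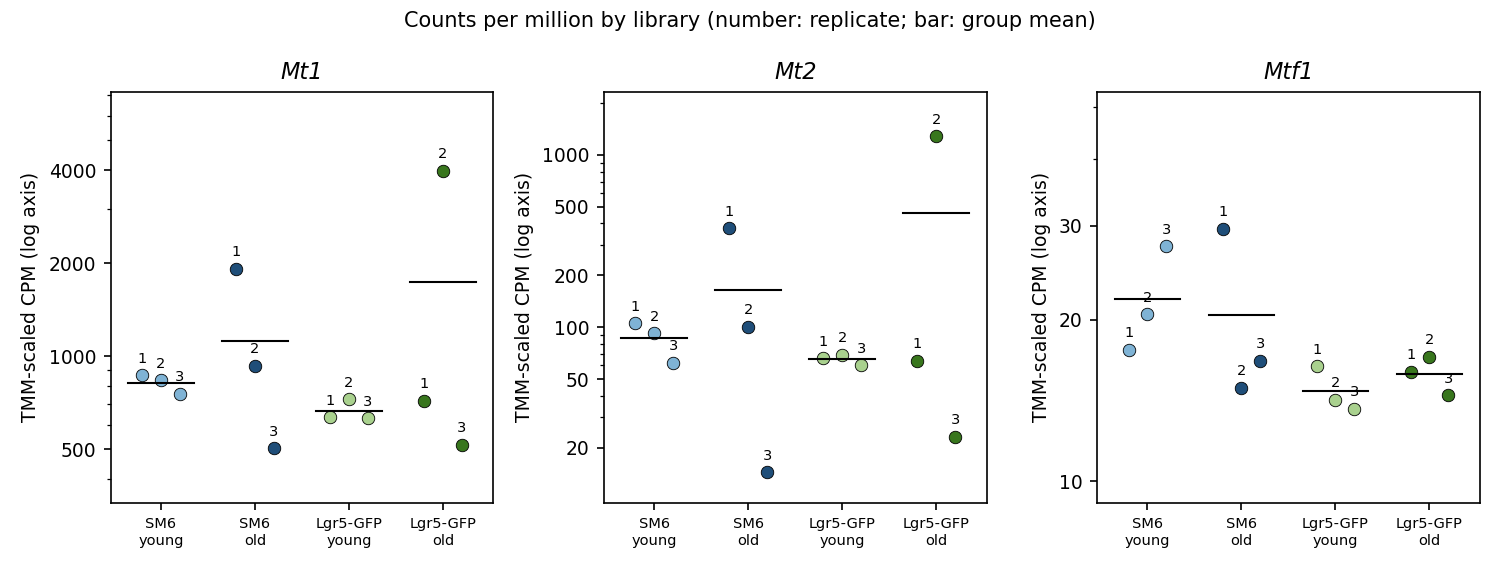
TMM-scaled CPM (log axis) of Mt1, Mt2 and Mtf1 in each of the 12 libraries, by group; points are single mice, numbered by replicate, and bars are group means. The 3 old libraries of each isolation spread from 503 to 1923 CPM (SM6) and from 518 to 3984 CPM (Lgr5-GFP) for Mt1, around the tight young groups.

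As group means ± SD (n = 3), Mt1 stood at 821 ± 58.1 CPM in young SM6, 1120 ± 728 in old SM6, 663 ± 53.4 in young Lgr5-GFP and 1740 ± 1946 in old Lgr5-GFP. Mt2 stood at 86.6 ± 22.2, 163 ± 189, 65.1 ± 4.59 and 458 ± 717 CPM in the same order. By the mean, old Lgr5-GFP came first for both genes, followed by old SM6, young SM6 and young Lgr5-GFP. By the median, the order for Mt1 was old SM6 (932 CPM), young SM6 (837), old Lgr5-GFP (718) and young Lgr5-GFP (635), and old Lgr5-GFP fell to the last place for Mt2 (64.0 CPM). The first places of the old Lgr5-GFP group by the mean therefore rested on 1 mouse. Neighbours in these orders overlapped in their single values, except for Mt1 between the young groups. For Mtf1 the means were 21.9 ± 5.07, 20.4 ± 8.00, 14.7 ± 1.45 and 15.8 ± 1.31 CPM.

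The ratio of the highest to the lowest library of a group puts a number on this spread. For Mt1 it was 1.15 in young SM6 and 1.15 in young Lgr5-GFP, but 3.82 in old SM6 and 7.69 in old Lgr5-GFP. For Mt2 it was 1.70 and 1.15 in the young groups, 26.1 in old SM6 and 55.5 in old Lgr5-GFP. Over the 8327 tested genes with a mean of at least 10 CPM, the median ratio was 1.37 in young SM6, 1.38 in young Lgr5-GFP, 1.46 in old SM6 and 1.45 in old Lgr5-GFP. In old SM6, 4 of these genes (0.048%), Mt2 included, spread at least as widely as Mt2, and in old Lgr5-GFP 8 did (0.0961%). In the young groups Mt1 was among the steadier genes, with 84.3% (SM6) and 86.9% (Lgr5-GFP) of genes spreading at least as widely. Mtf1 had ratios of 1.56, 1.98, 1.20 and 1.18 in young SM6, old SM6, young Lgr5-GFP and old Lgr5-GFP. With 3 mice per group these ratios describe the mice at hand, and no test of the spread was made.

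Mt2 also took a changing share of the metallothionein reads. Within a library this share does not depend on depth or scaling, although 3′ counts of 2 genes do not compare their molecules exactly. In the young libraries Mt2 made up 10.8%, 9.90% and 7.59% of Mt1 plus Mt2 counts (SM6) and 9.44%, 8.69% and 8.69% (Lgr5-GFP). In old SM6 it made up 16.3% in replicate 1 (95% exact binomial interval 15.0% to 17.7%), 9.72% in replicate 2 (8.28% to 11.3%) and 2.78% in replicate 3 (1.65% to 4.35%). In old Lgr5-GFP it made up 8.18% in replicate 1 (6.67% to 9.89%), 24.4% in replicate 2 (23.4% to 25.5%) and 4.28% in replicate 3 (2.76% to 6.30%). The share was thus highest where both genes were high and lowest where both were low, and in those 4 old libraries the intervals did not reach the shares of the young libraries of the same isolation. The intervals cover counting error only.

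**Figure D2:**
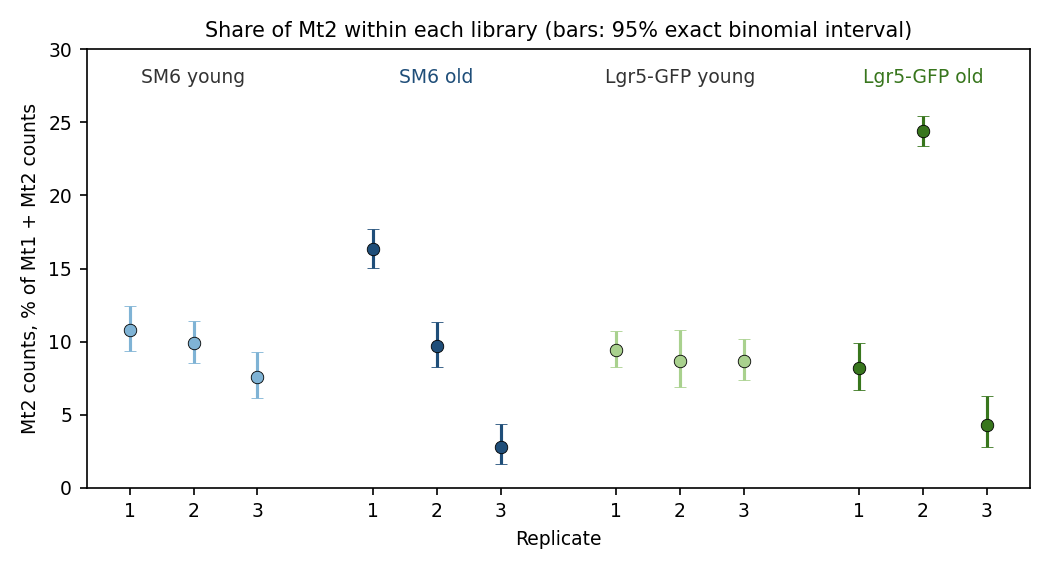
Mt2 counts as a percentage of Mt1 plus Mt2 counts in each library, by group and replicate; points are the shares and bars their 95% exact binomial intervals. Young libraries lie between 7.59% and 10.8%, and the old ones range from 2.78% to 24.4%.

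Across the 12 libraries, log2(CPM + 1) of Mt1 and Mt2 correlated with Pearson's r = 0.969 and Spearman's rho = 0.944. Without the 2 highest libraries r was 0.919, and as deviations from the group means it was 0.985. Among 8324 other genes with a mean of at least 10 CPM, none had a higher r with Mt1 than Mt2 had, and none a higher r with Mt2 than Mt1 had. For Mtf1, r was 0.356 with Mt1 and 0.329 with Mt2 (ranks 1045 and 1230), rho was 0.531 and 0.434, and as deviations from the group means r was 0.448 and 0.436. Without the 2 highest libraries r was 0.287 and 0.152. The libraries of a correlation share depth and scaling, and the 12 points come from 4 groups, so these are descriptions without a test.

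How far the reads of each gene can be told apart was checked on the annotation. Of 478 different stretches of 72 bases, the read length, in Mt1-201, 0 occurred in a transcript of another gene, so an exact read of Mt1 could not be taken for Mt2 or the reverse. An antisense gene, Gm45774, overlaps Mt2 and shared 147 of 440 such stretches, and it held 1 count over all 12 libraries. The gene 1110065P20Rik overlaps the 3′ end of Mtf1 on the minus strand, shared 650 of 7560 stretches of Mtf1-201 and held 3 counts in all. The counting is not stated to use strand, so reads inside these overlaps may be missing from Mt2 and Mtf1 or may include the antisense gene.

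The comparison of 22 with 2 months in SM6 mice asked how the genes differ with age in wild-type ISCs. Mt1 was higher by 0.45 on the log2 scale (SE 0.48) and Mt2 by 0.91 (SE 0.86) in the old mice, whereas Mtf1 differed by −0.09 (SE 0.30). All 3 genes overlapped between the ages, while 17.5% of all tested genes did not. Without SM6 old replicate 1 the Mt1 and Mt2 differences turned to −0.18 (SE 0.50) and −0.55 (SE 0.94), and Mtf1 to −0.44 (SE 0.33). Without SM6 old replicate 3 they became 0.80 for Mt1 and 1.45 for Mt2. With limma's quality weights, which count libraries far from their group for less, Mt2 differed by 0.38. Over all genes 2.42% passed an adjusted p of 0.05 (edgeR's quasi-likelihood test) in this comparison.

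In the Lgr5-GFP mice the same comparison gave a larger difference resting on 1 library. Mt1 was higher by 1.39 (SE 0.48) and Mt2 by 2.82 (SE 0.88) on the log2 scale in old mice, and Mtf1 by 0.10 (SE 0.32). These standard errors rest on the spread of all 4 groups, and the old Lgr5-GFP mice varied more. The SD of log2(CPM + 1) was 1.58 for Mt1 and 2.99 for Mt2 in old Lgr5-GFP, against 0.93 and 1.90 pooled over the groups. Again the ages overlapped for all 3 genes, and 14.6% of all tested genes did not. Without Lgr5-GFP old replicate 2 the differences were −0.10 (SE 0.32) for Mt1 and −0.52 (SE 0.65) for Mt2, with 2 old libraries left. With limma's quality weights they were 0.55 for Mt1 and 0.60 for Mt2. The share of all genes called was 0.471%. Among cell type markers 3 of 10 for enterocytes, Apoa1 (−1.47, adjusted p = 0.0381), Apoa4 (−1.64, adjusted p = 0.0297) and Lct (−2.24, adjusted p = 0.0326, edgeR), and 3 of 12 for Paneth cells were called lower in old Lgr5-GFP, and their part in the differences of Mt1 and Mt2 was not tested. Nor was that of the share of mitochondrial counts, which was 4.02%, 5.34% and 6.29% in young and 8.12%, 7.37% and 9.33% in old Lgr5-GFP, whereas in SM6 the ages overlapped (6.39% to 7.01% and 5.77% to 6.85%).

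Averaged over both isolations, the age difference was 0.92 (SE 0.34) for Mt1, 1.86 (SE 0.61) for Mt2 and 0.00 (SE 0.21) for Mtf1, in a comparison that called 2.66% of all genes. Without Lgr5-GFP old replicate 2 it was 0.17 for Mt1 and 0.19 for Mt2, and with limma's quality weights 0.47 and 0.49. The enterocyte markers Fabp1 (2.62, adjusted p = 0.00173) and Fabp2 (0.73, adjusted p = 0.0286) were called higher in this average (2 of 10), and the ISC markers Olfm4 (−0.58, adjusted p = 0.00306) and Sox9 (−0.70, adjusted p = 0.00324, edgeR) lower (2 of 10), with a part in the values of Mt1 and Mt2 that was not tested. Subtracting the age effect of SM6 from that of Lgr5-GFP left 0.95 (SE 0.67) for Mt1, 1.91 (SE 1.20) for Mt2 and 0.19 (SE 0.44) for Mtf1, where 0.658% of all genes were called. This difference turned to −0.54 for Mt1 and −1.43 for Mt2 without that same library, and was 0.15 and 0.22 with limma's quality weights. In this difference 11 of 12 Paneth, 5 of 10 enterocyte, 3 of 8 goblet and 2 of 9 enteroendocrine markers were called, all negative, with a part in the values of Mt1 and Mt2 that was not tested.

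Between isolations at 2 months, the young Lgr5-GFP libraries held less Mt1 than any young SM6 library, a log2 difference of −0.31 (SE 0.48), and less Mtf1, −0.55 (SE 0.30). Mt2 overlapped, with −0.42 (SE 0.87). Of all tested genes 13.7% did not overlap in this comparison and 0.0898% were called, so 3 against 3 libraries that do not overlap are common here. Each gene has 1 spread for all 4 groups in the fit, so the standard error of Mt1 here holds the spread of the old mice too. At 22 months Mt1 was 0.64 (SE 0.48) and Mt2 1.49 (SE 0.83) higher in Lgr5-GFP, and Mtf1 differed by −0.36 (SE 0.32). All 3 genes overlapped, against 13.5% of genes that did not, and 0.718% were called. Here the direction followed single mice: without Lgr5-GFP old replicate 2 the differences were −0.85 (Mt1) and −1.85 (Mt2), and without SM6 old replicate 1 they were 1.28 and 2.98. With limma's quality weights they were −0.14 and −0.17. For Mtf1 the difference without SM6 old replicate 1 was 0.01.

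Cell type markers and the share of mitochondrial counts differed between the isolations too, and their part in these differences was not tested. The mitochondrial share was 6.39% to 7.01% in SM6 and 4.02% to 6.29% in Lgr5-GFP at 2 months. At 22 months it was 5.77% to 6.85% in SM6 and 7.37% to 9.33% in Lgr5-GFP. At 2 months 2 of 9 enteroendocrine markers, the hormone gene Gip (−5.02, adjusted p = 0.000134) and the granule protein gene Chga (−2.27, adjusted p = 0.00121, edgeR), were called lower in Lgr5-GFP, and no marker of the other types. At 22 months 6 of 9 enteroendocrine markers, Gip (−6.93, adjusted p = 2.47e-06, edgeR) among them, 6 of 8 goblet, 5 of 10 enterocyte and 2 of 12 Paneth markers were called lower in Lgr5-GFP, and 1 of 10 ISC markers, Slc12a2 (0.78, adjusted p = 0.013, edgeR), higher. The summed enteroendocrine markers were 981 to 1543 CPM in young SM6, 1300 to 4185 in old SM6, 271 to 1365 in young Lgr5-GFP and 157 to 298 in old Lgr5-GFP.

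**Figure D3:**
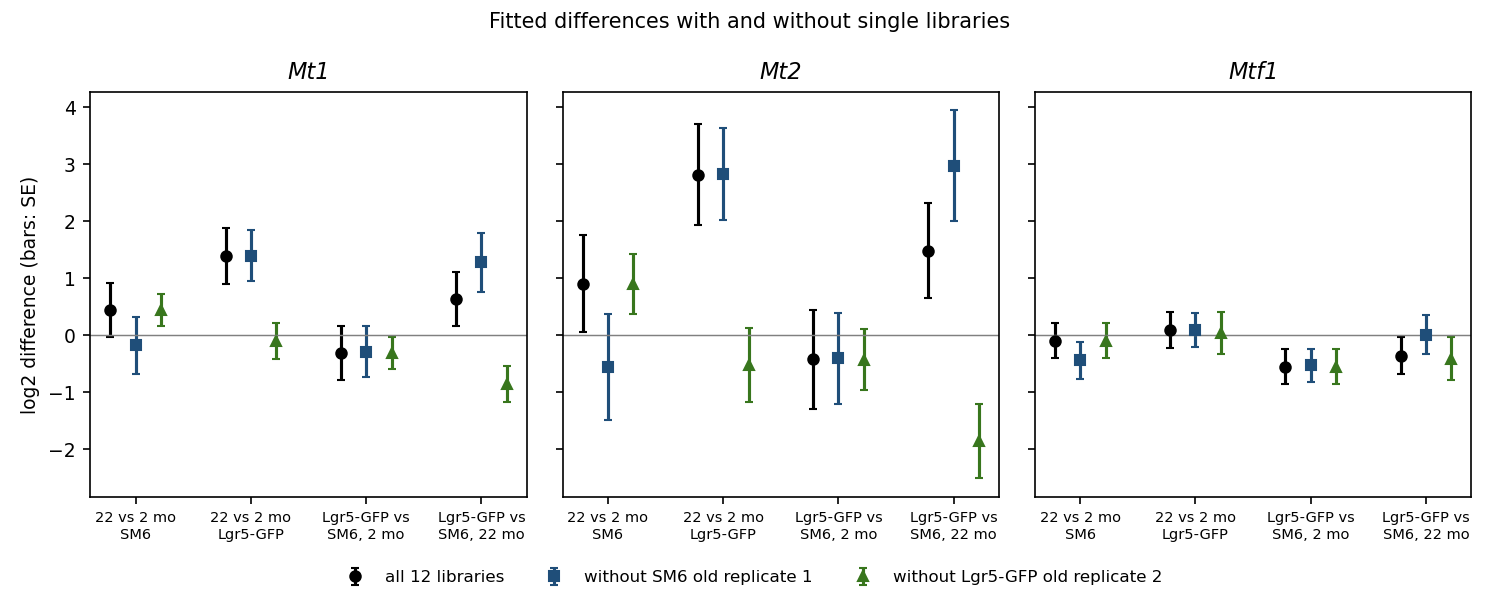
Fitted log2 differences (points) with their standard errors (bars) of Mt1, Mt2 and Mtf1 in 4 comparisons, from all 12 libraries and without 1 of the 2 libraries highest in Mt1 and Mt2. Leaving out Lgr5-GFP old replicate 2 moves Mt2 in the age comparison of Lgr5-GFP from 2.82 to −0.52.

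The other metallothioneins had few or no counts. Mt3, known from brain, had 0 counts in all 12 libraries, and Mt4, known from stratified epithelia, had 4 counts in all. Neither reached the minimum for testing.

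Zinc enters the cytosol through ZIP (Slc39a) transporters and leaves it through ZnT (Slc30a) transporters. Together with Mt3, Mt4, other reported MTF1 targets and genes that handle copper, another metal bound by metallothioneins, these made a list of 43 genes, of which 35 were tested. In SM6 mice 3 of 35 passed the adjusted p with age, 1 higher and 2 lower (8.57%, against 2.42% of all genes), and their median log2 difference was 0.11 against −0.01 over all genes. With age in Lgr5-GFP 0 of 35 passed in the edgeR test, with 1 at an unadjusted p under 0.05, and DESeq2 and limma also called 0. For the average age effect 2 of 35 passed, both lower (5.71%, against 2.66% of all genes). For the difference between age effects and for the isolations at 2 and 22 months 0 passed, with 5, 2 and 4 at an unadjusted p under 0.05. DESeq2 called 1 gene, the copper importer Slc31a1, in the first and the last of these 3, as did edgeR without SM6 old replicate 1 (adjusted p = 0.0459 in both), and limma called 0. Without a filter on low counts Slc39a1 (1.20, adjusted p = 0.00147), Sod1 (1.00, adjusted p = 0.00983) and Slc31a1 (−0.90, adjusted p = 0.0467, edgeR) passed for the difference between age effects, as did Slc39a4, described below, and Slc31a1 (−0.64, adjusted p = 0.0435) for the isolations at 22 months. In these 2 comparisons the unfiltered fit called 224 and 228 of 23621 genes. Without Lgr5-GFP old replicate 2 the average age effect also called Sco1, which serves copper delivery in mitochondria (−0.70, adjusted p = 0.0311, edgeR).

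Marker levels differed between the ages in SM6 as well. The summed ISC markers went from 12904 to 15968 CPM in the young to 8100 to 9315 CPM in the old libraries, with Olfm4 (−0.84, adjusted p = 0.00342) and Sox9 (−1.01, adjusted p = 0.00358, edgeR) called lower, 2 of 10 beside 2.42% of all genes. The summed goblet markers went from 5712 to 9134 CPM to 17322 to 18248 CPM, with 5 of 8 called higher. Of the enterocyte markers 4 of 10 were called higher, Alpi (1.89, adjusted p = 0.0119), Fabp1 (2.66, adjusted p = 0.0267), Fabp2 (1.07, adjusted p = 0.0272) and Sis (1.60, adjusted p = 0.00778, edgeR). So were 1 of 9 enteroendocrine markers, Sct (1.28, adjusted p = 0.0106), and 1 of 12 Paneth markers, Defa22 (3.12, adjusted p = 0.0471, edgeR). The part of these shifts in the age differences of Mt1, Mt2 and Mtf1 in SM6, given above, and of the genes below was not tested.

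Slc39a1, a ZIP transporter of the plasma membrane, fell with age in SM6 from 260, 305 and 316 CPM to 69.4, 79.4 and 123 CPM, a log2 difference of −1.70 (SE 0.31, adjusted p = 0.00279, edgeR). Every old SM6 library was below every young one. In Lgr5-GFP it went from 175, 182 and 229 CPM in the young to 97.3, 253 and 67.5 CPM in the old mice. Replicate 2, the library with the most metallothionein, stood above all 3 young libraries while the other two were below them. Without that library the difference passed the test (−1.23, adjusted p = 0.0104, edgeR), whereas with it the difference was −0.49 (adjusted p = 0.647). The average age effect was −1.09 (SE 0.21, adjusted p = 0.00379).

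Sod1, the copper and zinc superoxide dismutase, fell with age in SM6 from 1410, 1384 and 1165 CPM to 408, 571 and 475 CPM (log2 difference −1.44, SE 0.25, adjusted p = 0.00183, edgeR), and the average over both isolations was −0.94 (SE 0.17, adjusted p = 0.00268). In old Lgr5-GFP it stood at 456, 1037 and 484 CPM beside 751, 746 and 1167 CPM in the young, so replicate 2 lay among the young values. The age difference in Lgr5-GFP was −0.43 (adjusted p = 0.607, edgeR) with all libraries, and without replicate 2 it was −0.92 (adjusted p = 0.0458, edgeR). The third called gene, Slc31a1, which imports copper, rose with age in SM6 from 251, 244 and 252 CPM to 323, 515 and 427 CPM (0.76, SE 0.18, adjusted p = 0.0169, edgeR). This call was lost on library totals alone (adjusted p = 0.134) and without SM6 young replicate 1, 2 or 3 or SM6 old replicate 2 (adjusted p 0.0519 to 0.139).

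Slc30a1, the zinc exporter that MTF1 activates, was low, with 3 to 47 counts. Its level was 4.25, 3.88 and 7.23 CPM in young SM6, 3.90, 12.2 and 3.20 CPM in old SM6, 6.62, 7.56 and 1.24 CPM in young Lgr5-GFP, and 4.67, 38.2 and 7.72 CPM in old Lgr5-GFP. Its highest value was thus in Lgr5-GFP old replicate 2, the library with the most Mt1 and Mt2, but it was not raised in SM6 old replicate 1, the second for both. The age difference in Lgr5-GFP was 1.77 (SE 0.67) with an adjusted p of 0.341 (edgeR), and 0.30 without that library. Without a filter on low counts, its adjusted p was 0.0338.

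Slc39a4, the importer that takes up zinc from the gut lumen, was lowest of the 12 libraries in that same library. It stood at 40.0, 46.6 and 35.4 CPM in young SM6, 53.0, 76.7 and 83.9 CPM in old SM6, 79.4, 57.7 and 56.3 CPM in young Lgr5-GFP, and 70.0, 22.8 and 48.2 CPM in old Lgr5-GFP. No comparison of Slc39a4 passed the test in edgeR with all 12 libraries. Its difference between the age effects was −1.26 (SE 0.39, adjusted p = 0.22), and the adjusted p was 0.0481 without Lgr5-GFP old replicate 1. Without a filter on low counts, Slc39a4 passed for age in SM6 (0.79, adjusted p = 0.0256) and for the difference between age effects (−1.27, adjusted p = 0.0109).

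The other genes chosen for their role passed in no comparison in edgeR with all 12 libraries. Slc39a10, a ZIP transporter that MTF1 represses, ran from 6.23 CPM in SM6 old replicate 1 to 17.6 CPM in SM6 old replicate 3, and stood at 8.94 CPM in Lgr5-GFP old replicate 2. Gclc, a subunit of the enzyme that starts glutathione synthesis, differed with age by 0.22 (SE 0.29) in SM6 and 0.56 (SE 0.28) in Lgr5-GFP, with adjusted p of 0.822 and 0.524 (edgeR). Selenow, a small selenoprotein, differed by 0.36 (SE 0.21) and 0.42 (SE 0.21), with adjusted p of 0.507 and 0.534 (edgeR). Of the 7 MTF1 targets other than metallothioneins 0 passed in any of the 6 comparisons in edgeR, DESeq2 or limma with the filter on low counts, with at most 2 at an unadjusted p under 0.05 in a comparison. Without the filter 1 passed in edgeR, Slc30a1 with age in Lgr5-GFP, as given above.

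**Figure D4:**
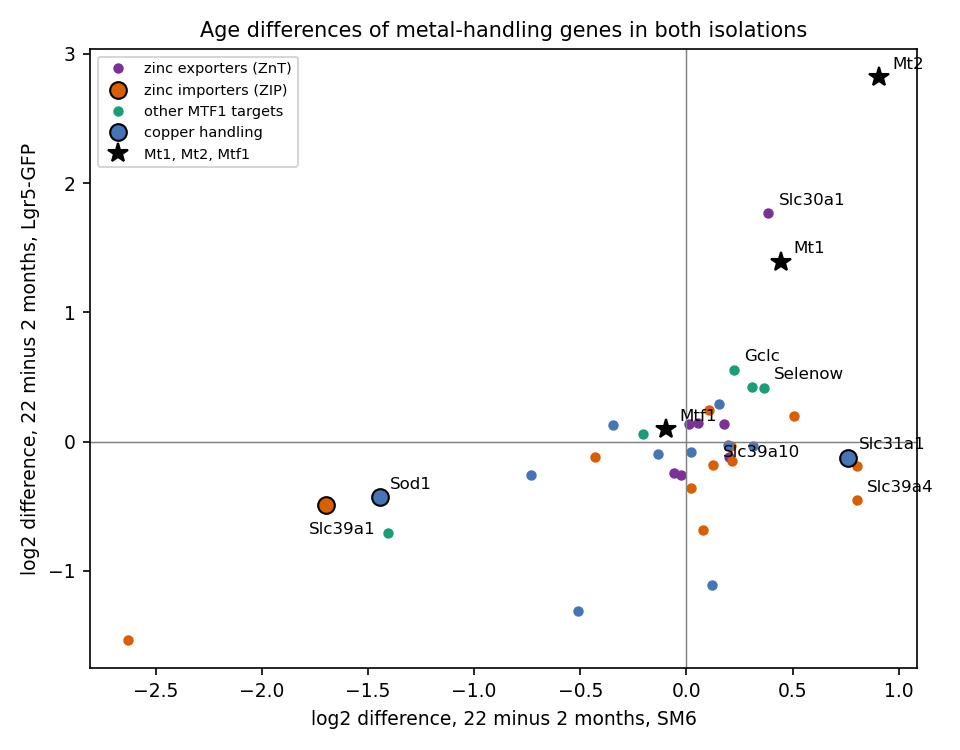
Log2 difference between 22 and 2 months in SM6 (x axis) and in Lgr5-GFP (y axis) for each tested gene of zinc and copper handling and MTF1 targets, coloured by list, with Mt1, Mt2 and Mtf1 as stars; large outlined points passed the adjusted p in SM6. Slc30a1 lies near Mt1, and Slc39a1 and Sod1 lie left of 0.

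Glucocorticoid-responsive genes were listed because metallothioneins are among them. In SM6 2 of 7 tested passed with age, in opposite directions, where 2.42% of all genes passed. Fkbp5, a chaperone of the glucocorticoid receptor, rose from 24.3, 28.8 and 26.0 CPM to 80.3, 85.5 and 47.9 CPM (1.43, SE 0.27, adjusted p = 0.00358, edgeR). Klf9, a transcription factor, fell by 1.15 on the log2 scale (SE 0.29, adjusted p = 0.0333), a call lost without SM6 young replicate 2 or SM6 old replicate 1, 2 or 3 (adjusted p 0.0559 to 0.312). Both passed for the average age effect, which called 2.66% of all genes (Fkbp5 1.06, adjusted p = 0.00214; Klf9 −0.80, adjusted p = 0.0315), and 0 of 7 passed in the other 4 comparisons in edgeR, DESeq2 or limma, with 1 to 4 at an unadjusted p under 0.05. Klf9 lost the average call in 6 of 12 fits that each left out 1 library (adjusted p 0.0542 to 0.16) and in limma (adjusted p = 0.0605). In the 2 libraries highest in metallothionein, SM6 old replicate 1 and Lgr5-GFP old replicate 2, Fkbp5 stood at 80.3 and 48.8 CPM, and other old libraries of the same isolation were higher (85.5 and 68.5 CPM).

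Of 10 tested genes of the oxidative stress response 0 passed in any comparison in edgeR, DESeq2 or limma, with at most 1 at an unadjusted p under 0.05. Genes induced when tissue is dissociated (16 tested) were listed as a sign of handling. With age in SM6 2 of 16 fell (2.42% of all genes were called in either direction), the AP-1 subunits Jun (−0.87, adjusted p = 0.00801) and Jund (−1.06, adjusted p = 0.00703, edgeR). In Lgr5-GFP the heat shock protein Hsph1 fell by 1.32 on the log2 scale (adjusted p = 0.000598), 1 of 16 beside 0.471% of all genes. Without a filter on low counts Fos (−1.24, adjusted p = 0.000694), Junb (−1.05, adjusted p = 0.00134) and Hspa1a (−5.82, adjusted p = 0.0498, edgeR) were called lower there too, beside 274 of 23621 genes called. The average age effect called 4 of 16, Jun, Jund, Hsph1 and the immediate early factor Egr1, all lower, beside 2.66% of all genes, and Egr1 (−1.09, adjusted p = 0.0492) lost its call in 10 of 12 fits without 1 library and in 4 other alternatives. Fos (2.22, adjusted p = 0.0127) and Hsph1 (1.21, adjusted p = 0.00205) were higher in Lgr5-GFP than SM6 at 2 months (2 of 16, beside 0.0898% of all genes), and Jun (0.91, adjusted p = 0.013) at 22 months (1 of 16, beside 0.718%). At 2 months DESeq2 (5.88, adjusted p = 0.0261) and limma (4.50, adjusted p = 0.0266) also called the AP-1 subunit Fosb. At 22 months DESeq2 also called Fos (1.83, adjusted p = 0.0192) and Egr1 (1.82, adjusted p = 0.0475). Without the filter edgeR further called Egr1 with age in SM6 (−1.48, adjusted p = 0.0204), Fos for the average age effect (−1.03, adjusted p = 0.00035), Fosb and Junb at 2 months and Fos and Egr1 at 22 months. In these comparisons 603, 590, 125 and 228 of 23621 genes were called, in the same order. Jun and Jund with age in SM6, Fos at 2 months and Jun at 22 months each lost the call without 1 to 4 single libraries (adjusted p 0.0526 to 0.148).

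By likeness over the 12 libraries in log2(CPM + 1), the 5 genes closest to Mt1 were Hadha (r = 0.924), Creb3l3 (0.916), Acadl (0.913), Acaa2 (0.900) and Vwa8 (0.897). Hadha, Acadl and Acaa2 encode enzymes of mitochondrial fatty acid oxidation, and Creb3l3 a transcription factor of lipid metabolism in liver and intestine. Those closest to Mt2 were Hadha (0.900), Creb3l3 (0.874), Apoe (0.870), Pwwp2b (0.849) and Vwa8 (0.848). All of these 7 genes peaked in Lgr5-GFP old replicate 2, where Hadha reached 330 CPM beside 139 CPM on average and Creb3l3 120 CPM beside 33.8. Without the 2 libraries farthest from the median of the metallothionein, r with Mt1 fell to 0.613 for Hadha, 0.397 for Creb3l3, 0.217 for Acadl, 0.225 for Acaa2 and 0.323 for Vwa8. With Mt2 it was 0.598 for Hadha, 0.400 for Creb3l3, 0.559 for Apoe and 0.304 for Vwa8, and 0.842 for Pwwp2b. The rho of Pwwp2b with Mt2 was 0.587, ranked 179th, and it stood at 14.8 CPM in SM6 old replicate 1, within the 12.7 to 15.2 CPM of young SM6. By Spearman's rho Hadha (0.622) ranked 148th for Mt1.

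The genes closest to Mtf1 were others, Tmem117 (r = 0.879), Avl9 (0.841), Pdlim5 (0.840), Fbxo42 (0.835) and Wbp2 (0.829). These 5 peaked in SM6 old replicate 1, the library highest in Mtf1. For Tmem117, r was 0.713 without the 2 farthest libraries and rho was 0.825.

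**Figure D5:**
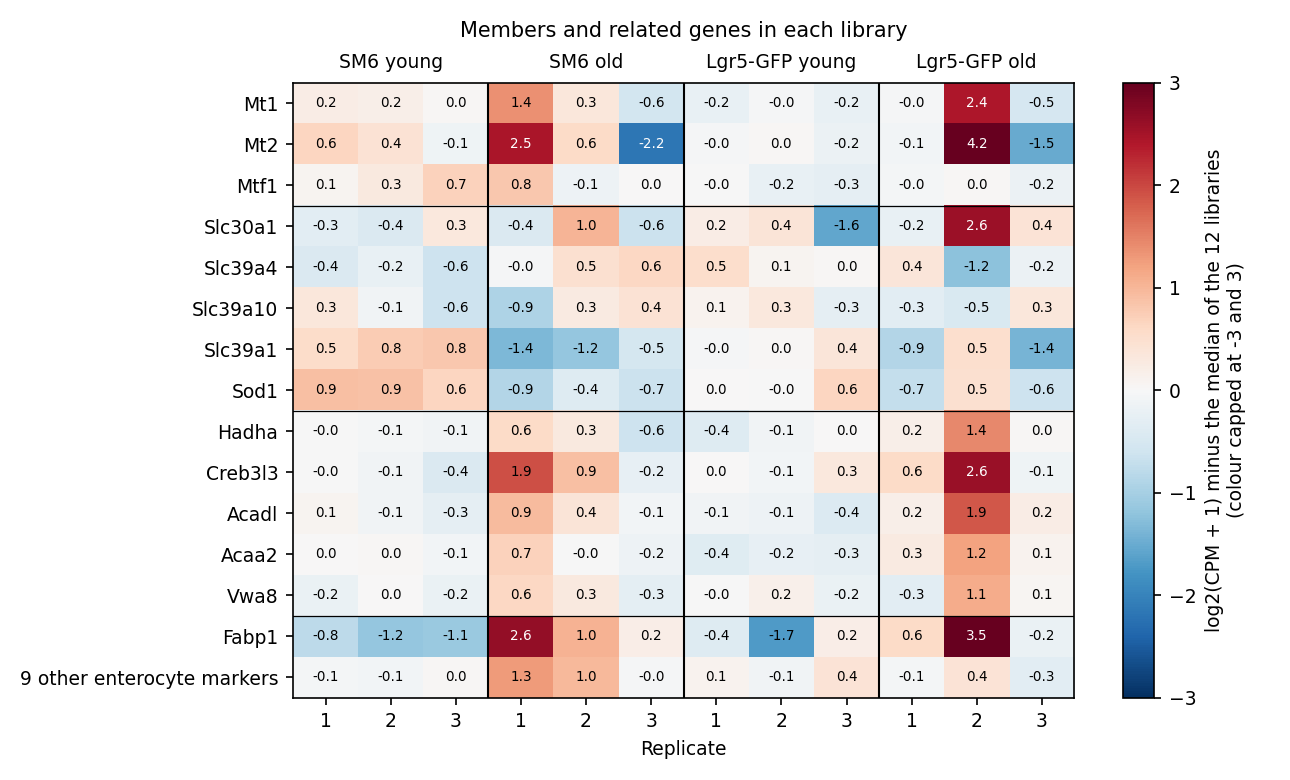
Log2(CPM + 1) minus its median over the 12 libraries for the members, 5 metal-handling genes, the 5 genes most like Mt1 and enterocyte markers (the last row is the sum of the 9 markers other than Fabp1); columns are libraries by group and replicate, red is higher and blue lower. Mt2 is highest in Lgr5-GFP old replicate 2, together with Slc30a1, the fatty acid oxidation genes and Fabp1.

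The 2 libraries highest in Mt1 and Mt2 also had the highest summed enterocyte markers, in Lgr5-GFP old replicate 2 through Fabp1 alone. The part of these markers in the metallothionein values was not tested. The 10 enterocyte markers all had counts in every library, and their summed level was 1805 to 1932 CPM in young SM6, 2470 to 9166 in old SM6, 1658 to 2976 in young Lgr5-GFP and 1970 to 11804 in old Lgr5-GFP. The highest sums were those of the same 2 libraries, Lgr5-GFP old replicate 2 (11804 CPM) and SM6 old replicate 1 (9166 CPM). The latter was the highest library for 7 of the 10 markers. In Lgr5-GFP old replicate 2 this was so for 1 of 10, Fabp1, a fatty acid binding protein, at 9851 CPM. Fabp2 in that library (1251 CPM) was also above the 543 to 732 CPM of young Lgr5-GFP. Apoa1, Apoa4, Lct and Sis went the other way, with every old Lgr5-GFP library below every young one. Their highest old values were 164, 17.3, 8.94 and 28.7 CPM, against lowest young values of 268, 32.1, 17.0 and 31.2 CPM. The 9 markers other than Fabp1 summed to 1953 CPM in Lgr5-GFP old replicate 2, against 1386 to 1953 CPM in young Lgr5-GFP. They summed to 3603 CPM in SM6 old replicate 1 and to 2889 CPM in SM6 old replicate 2, where Mt1 and Mt2 lay near the young levels. The 12 Paneth cell markers all had counts in every library, with sums of 12921 to 88489 CPM in young SM6, 54178 to 331820 in old SM6, 57428 to 321400 in young Lgr5-GFP and 22887 to 39042 in old Lgr5-GFP. Defensin genes, which Paneth cells express, made up 23.1% of counts in SM6 old replicate 3, one of the 2 lowest libraries for both metallothioneins, and 23.2% in Lgr5-GFP young replicate 1, where Mt1 (635 CPM) was like that of its group. They made up 2.41% in Lgr5-GFP old replicate 2 and 3.86% in Lgr5-GFP old replicate 3, the highest and a low library for Mt1. Goblet cell markers summed to 17322 to 18248 CPM in old SM6, and to 5304 to 13753 CPM in young and 3160 to 5504 CPM in old Lgr5-GFP. The ISC markers summed to 12654 to 14475 CPM in young and 10804 to 12479 CPM in old Lgr5-GFP, with 11052 CPM in replicate 2. The part of the Paneth, goblet and ISC markers in the metallothionein values was not tested either. In bulk RNA a change in the number of cells of a type and a change in RNA per cell cannot be told apart.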

How the data were processed

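The data were 3′ RNA-seq libraries of sorted mouse ISCs. The authors deposited raw read counts per gene, made with STAR 2.4.2a and featureCounts per the submitters' processing notes, on GRCm38 with GENCODE vM15 exons. Unique molecular identifiers were added, but whether counts are of molecules is not given in the sources used here. Symbols were matched for 54079 of 54232 genes, and 30611 genes had 0 counts throughout. A gene was kept if any library held over 5 reads of it at a CPM of 1 or higher (13368 genes). One mean per group was fitted over 12 libraries with edgeR 4.0.16 (TMM, quasi-likelihood, two-sided, Benjamini-Hochberg over all genes kept, threshold 0.05) in R 4.3.3, after a test on simulated data. SEs are the log2 difference over the root of the F statistic. They rest on 1 spread per gene for all 4 groups, so they are too small where the compared mice vary more than that. The p-values set a difference of group means against the spread between mice, estimated for each gene over all 4 groups. Alternatives used DESeq2 1.42.0, limma 3.58.1 (voom with quality weights), other scalings and filters, single groups, a replicate block and leaving out each library. Members and gene lists were chosen with earlier results of these data known. List genes were named if called, or for their role (Slc30a1, Slc39a4, Slc39a10, Gclc, Selenow, Mt3, Mt4). The 5 most alike genes per member had a mean of at least 10 CPM. Motifs were searched in RefSeq promoter windows, and promoters missing from that table were not searched. Differences between SM6 and Lgr5-GFP, and each fold, are read relative to TMM scaling.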

Additional observations from a re-analysis of the deposited data

Results flagged for a closer look

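The heat shock protein gene Hsph1, listed as a sign of tissue handling, drew attention because its change with age differed between the isolations. Its age effect in Lgr5-GFP minus that in SM6 was −1.49 on the log2 scale (SE 0.26, adjusted p = 0.00554, edgeR). It stood at 255, 266 and 295 CPM in Lgr5-GFP young and at 103, 121 and 101 CPM in Lgr5-GFP old, so that every old library was lower there. In SM6 it stood at 123, 131 and 98.3 CPM in young and at 119, 110 and 168 CPM in old mice, and these overlapped. The adjusted p stayed between 0.0058 and 0.0249 in 12 fits that each left out 1 library, and was 0.0602 on library totals alone. In the same comparison 11 of 12 Paneth (−4.06 to −6.95), 5 of 10 enterocyte, 3 of 8 goblet and 2 of 9 enteroendocrine markers were called, all negative as for Hsph1, beside 0.658% of all genes, and their part in the Hsph1 value was not tested. Mt1, Mt2 and Mtf1 were given no such test, and no test of outliers was made.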

How the results depend on the processing

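The members' differences stayed within 1 SD of the replicates, pooled over the 4 groups (0.93 for Mt1, 1.90 for Mt2 and 0.31 for Mtf1, on the log2 scale), under most alternatives. Apart from fits that left out a library, the exceptions were Mt2 with age in Lgr5-GFP, 0.60 with limma's quality weights, and the Mtf1 difference between age effects, 0.55 on library totals alone, where the median of all genes shifted to 0.35. Library totals moved the median of all genes to −0.16 with age in SM6, 0.16 with age in Lgr5-GFP, −0.15 between isolations at 2 months and 0.21 at 22 months. The cause of the other shifts was not tested. The pooled SD is a wide limit for Mt1 and Mt2, set by the old groups. For Mt2 the SD was 0.39 in young SM6 and 0.10 in young Lgr5-GFP, but 2.32 and 2.99 in the old. A difference can therefore change sign and still count as within it. Within that SD, limma's weights still brought Mt1 and Mt2 to 0.47 and 0.49 for the average age effect, 0.15 and 0.22 for the difference between age effects, and −0.14 and −0.17 between isolations at 22 months, Mt1 to 0.55 with age in Lgr5-GFP and Mt2 to 0.38 with age in SM6.

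Leaving out Lgr5-GFP old replicate 2 moved Mt1 and Mt2 by more than that SD with age in Lgr5-GFP, for the difference between age effects and at 22 months, and leaving out SM6 old replicate 1 moved Mtf1 so with age in SM6, for the difference between age effects and at 22 months. Over all libraries left out 1 at a time, the values were −0.18 to 0.80 (Mt1), −0.55 to 1.45 (Mt2) and −0.44 to 0.10 (Mtf1) with age in SM6, −0.10 to 1.83, −0.52 to 3.37 and 0.04 to 0.20 with age in Lgr5-GFP, and 0.17 to 1.14, 0.19 to 2.14 and −0.17 to 0.10 for the average. The differences between age effects ran from −0.54 to 1.57, −1.43 to 3.38 and 0.00016 to 0.54. Between isolations they ran from −0.38 to −0.27, −0.61 to −0.26 and −0.68 to −0.36 at 2 months, and from −0.85 to 1.28, −1.85 to 2.98 and −0.55 to 0.012 at 22 months. The genes called among all tested ran from 145 to 404 (age in SM6), 26 to 113 (age in Lgr5-GFP), 228 to 471 (average), 41 to 98 (difference between age effects), 6 to 39 (isolation at 2 months) and 40 to 120 (at 22 months). Of the 35 metal-handling genes 2 to 3, 0 to 2, 2 to 3, 0 to 1, 0 and 0 to 1 were called, in the same order.

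Without a filter on low counts 603, 274, 590, 224, 125 and 228 of 23621 genes were called, beside 323, 63, 355, 88, 12 and 96 of 13368 with it. Of the 43 listed metal-handling genes 1, 4 and 1 then passed for age in Lgr5-GFP, the difference between age effects and isolation at 22 months. Library totals alone called 97 genes with age in Lgr5-GFP and 25 for isolation at 2 months, DESeq2 and limma 22 each for the latter. DESeq2 called 1 metal-handling gene each for the difference between age effects and isolation at 22 months.

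With a replicate block Mt1 was 1.05 and Mt2 1.90 higher with age in Lgr5-GFP, and 331 and 57 genes were called with age in SM6 and Lgr5-GFP. The block changed no call of a metal-handling gene. Same-numbered libraries share only a number: over 18 pairs their deviations correlated with r from −0.072 to 0.046, 0 over 0.1, and 8 of 18 correlated best with their own number.

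By Spearman's rho Hadha stood at 0.622 (Mt1) and 0.559 (Mt2). The MRE core with a final G matched once in the Mt1 window and 3 times in that of Mt2. Mtf1, at 15 to 52 counts, and Slc30a1, at 3 to 47, are limited by depth.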
